A study of Mus musculus with 8 samples.

Results

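The imprinted Dlk1-Meg3 locus of mouse chromosome 12 was followed through muscle stem cells that differ in their level of Myf5, which encodes a factor of myogenic commitment. Its 4 members, Dlk1, Meg3, Rian and Mirg, were chosen by name, and 3 of them, Dlk1, Meg3 and Mirg, were found by Ensembl identifier among the 27554 genes of the count table. Rian is not analysed here. The members were chosen by their place in the locus with earlier results of these data known, among them the counts of these libraries and the comparisons between fractions and sexes, so their levels and differences are a description, and p-values given for them place them in the fit over all genes and are no independent support.

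The cells were sorted by flow cytometry from hindlimb muscle of C57BL/6NTac mice, and all groups carried the same pair of reporter alleles, T2A-ZsGreen at Pax7 and T2A-E2Crimson at Myf5. Pax7 is the transcription factor that marks muscle stem cells, and Myf5High and Myf5Low are the Pax7-positive cells at either end of the E2Crimson range. The labels give High or Low Myf5 expression as the genotype, although both fractions have the same alleles. There were 4 groups, female Myf5High, female Myf5Low, male Myf5High and male Myf5Low, with 2 libraries of polyA RNA per group and 4 mice pooled for each library. The age of the mice is not given in the sources used here. The comparisons asked how the fractions differ in each sex, and how the sexes differ.

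The libraries held 3140361 to 4238427 counts assigned to genes. The transcript Gm42418 took 20.1% to 28.8% of them and mitochondrial genes 0.694% to 2.82%. In each of the 4 groups the 2 replicates stood apart by more than counting noise, the chi-square being 8.81 to 27.7 times its degrees of freedom. Pax7 had 1000.8 to 1498 normalised CPM (counts scaled to a common library size by TMM), so the marker of the labelled cell type was present in all 8 libraries. Levels are given as mean ± SD over libraries, and n is the number of libraries.

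In this locus the copy inherited from the father makes the protein-coding RNAs, among them Dlk1, and the copy inherited from the mother makes a run of noncoding RNAs on the same strand, Meg3, Rian and Mirg. Dlk1 encodes a transmembrane protein related to the Notch ligands, which is known for holding back differentiation in adipose precursors. Meg3 is a long noncoding RNA kept mostly in the nucleus, Rian is the host of a cluster of small nucleolar RNAs, and Mirg is the host of a large cluster of microRNAs. Parental methylation at a region upstream of Meg3 sets which copy is active, and the zinc finger protein ZFP57 is among the proteins that keep such methylation.

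All 4 members lie on the + strand of chromosome 12 in GRCm38, the build in the submitters' processing notes, with positions and gene models from GENCODE M21. Dlk1 (ENSMUSG00000040856, protein coding) spans chr12:109452823-109463336. Meg3 (ENSMUSG00000021268, lincRNA) spans chr12:109541001-109571726. Rian (ENSMUSG00000097451, processed transcript) spans chr12:109603940-109661716. Mirg (ENSMUSG00000097391, lincRNA) spans chr12:109729764-109749460. The count table used here held 5457 of 5854 annotated lincRNA genes but 9 of 790 genes of the processed transcript type to which Rian belongs. From Begain to Dio3, the genes that bound the imprinted domain, 122 genes are annotated, of which 16 had a row and 7 of those had at least 1 count. The 69 annotated microRNA genes and 23 small nucleolar RNA genes, which Mirg and Rian in part host, are not analysed here, and levels of Mirg are those of its polyA transcript.

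**Figure D1:**
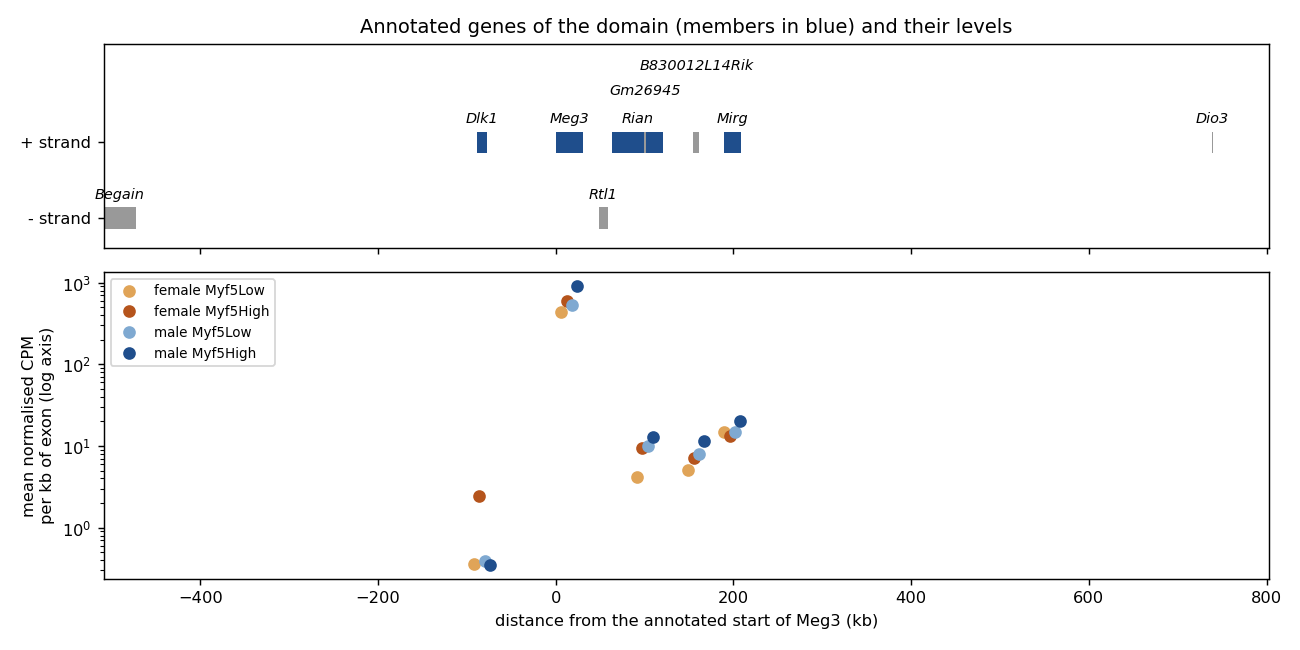
The upper panel places a selection of the annotated genes of the domain by distance in kb from the annotated start of Meg3, by strand, with the members in blue. The lower panel gives the mean level of each tested transcript in each group (n = 2 libraries), in normalised CPM per kb of exon on a log axis, with the 4 groups spread sideways: Meg3 lies far above Mirg, B830012L14Rik and Gm26945, and Dlk1 lies lowest.

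The promoter of Meg3 is shown because Meg3 gave almost all of the counts of the 3 analysed members, and that of Dlk1 because Dlk1 differed most in level between groups by fold. Each window runs from 250 bases before to 50 bases after a start that RefSeq gives in GRCm38.p6, for Meg3 the upstream one of its 2 starts. Capitals mark matches to 4 motifs searched on both strands: the cAMP response element TGACGTCA, its shorter form TGACG that lies within it, the ZFP57 hexamer TGCCGC and the TATA box TATAAA.

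Meg3, chr12:109540746-109541045, + strand: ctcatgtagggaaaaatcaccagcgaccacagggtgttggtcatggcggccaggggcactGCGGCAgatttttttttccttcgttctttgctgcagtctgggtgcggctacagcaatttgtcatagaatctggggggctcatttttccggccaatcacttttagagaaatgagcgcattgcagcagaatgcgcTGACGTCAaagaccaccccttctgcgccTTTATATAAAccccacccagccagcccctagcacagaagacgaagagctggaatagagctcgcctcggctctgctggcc

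Dlk1, chr12:109452573-109452872, + strand: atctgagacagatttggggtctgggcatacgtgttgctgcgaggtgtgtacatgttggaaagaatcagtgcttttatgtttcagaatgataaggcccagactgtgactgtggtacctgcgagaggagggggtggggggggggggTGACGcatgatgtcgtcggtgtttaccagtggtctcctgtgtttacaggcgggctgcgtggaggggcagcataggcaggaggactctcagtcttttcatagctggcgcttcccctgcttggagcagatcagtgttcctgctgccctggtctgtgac

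The Meg3 window held the cAMP response element at position -57 from the start, a match that 1.79% of 32851 promoters of the same length share. It also held the ZFP57 hexamer on the other strand at -190, as did 11.6% of promoters, and overlapping TATA boxes, at -25 as written and at -29 on the other strand, as did 13.6% on either strand. The Dlk1 window held only the short form TGACG, at -106, which 20.8% of promoters share. Neither window had a match to the E-box CANNTG, the class of site read by Myf5 and its relatives, which 72.3% of promoters held, or to the MEF2 motif, which 3.19% held. The window at the other start of Meg3 held 1 E-box at -172, and those of Rian and Mirg 1 each, at -139 and -89, with no match to the other motifs. The Mirg window, chr12:109734731-109735030, belongs to a RefSeq start inside the GENCODE span of Mirg, and not to the start of that span. The Meg3 window had 13 CpG dinucleotides and the Dlk1 window 9, beside a median of 7 over all promoters. These matches describe the letters of the windows, and binding or methylation was not measured.

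Some of the microRNAs encoded in the domain share a seed, the bases by which a microRNA recognises its targets, and 3 such pairs with an arm inside Mirg or Rian show what these hosts encode. RefSeq lists 113 mature microRNAs of the domain, 26 of them within Mirg, 6 within Rian and 3 within Meg3, and they have 104 seeds of which 9 are shared. Capitals mark the seed, bases 2 to 8.

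miR-453: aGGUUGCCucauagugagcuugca

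miR-496a-5p: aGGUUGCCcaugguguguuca

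miR-410-5p: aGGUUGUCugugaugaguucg

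miR-494-5p: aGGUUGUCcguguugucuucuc

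miR-370-5p: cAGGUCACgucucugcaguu

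miR-1193-3p: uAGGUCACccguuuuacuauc

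The first 2 arms lie within Mirg and share the seed GGUUGCC. The seed GGUUGUC is shared by an arm within Mirg, miR-410-5p, and one between the members, miR-494-5p. The seed AGGUCAC is shared by miR-370-5p within Rian and miR-1193-3p between the members.

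Meg3 was among the most abundant transcripts of these cells. It ranked 4 to 6 among all genes by CPM in the 8 libraries, 2 or 3 among lincRNAs, and 23 to 59 among all genes per kb of exon. Its share of gene counts was 1.086% and 1.094% for the female Myf5High pair of libraries and 0.907% and 0.707% for female Myf5Low. For males the shares were 1.469% and 1.567% (Myf5High) and 0.756% and 1.215% (Myf5Low). The widest of the 95% Wilson intervals behind these shares was 1.554% to 1.58%, and the intervals of the female Myf5High pair, 1.074% to 1.097% and 1.084% to 1.105%, overlapped. Such intervals cover counting error only.

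In normalised CPM, Meg3 stood at 11026 and 10603 for female Myf5High and 9639 and 6363 for female Myf5Low. It reached 14954 and 17916 in the male Myf5High libraries, with 7108 and 11968 for male Myf5Low. The male Myf5High libraries were the highest, and above every library of the other groups. The next groups, female Myf5High at 10815 ± 299 and male Myf5Low at 9538 ± 3437 (SD, n = 2 each), overlapped, as did male Myf5Low and female Myf5Low at 8001 ± 2316 (SD, n = 2). Male Myf5High had 16435 ± 2095 (SD, n = 2). The male Myf5Low libraries differed from each other by more than their mean differed from either female group.

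Mirg was far lower than Meg3 per length. Meg3 had 352 to 991 CPM per kb of exon and Mirg 10.5 to 22.2. Among females Mirg stood at 81.2 and 110.5 normalised CPM (Myf5High) and at 98.1 and 120.4 (Myf5Low). Among males it stood at 135 and 162 (Myf5High) and at 76.4 and 141 (Myf5Low). The male Myf5High libraries were above all 4 female libraries and overlapped those of male Myf5Low. Female Myf5Low at 109 ± 15.8, male Myf5Low at 109 ± 45.8 and female Myf5High at 95.8 ± 20.7 (SD, n = 2 each) overlapped with one another.

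Dlk1 was close to the detection limit in most libraries. The female libraries held 34 and 64 counts (Myf5High) and 0 and 17 counts (Myf5Low), and the male libraries 11 and 4 (Myf5High) and 7 and 12 (Myf5Low). The library at 0 had 3867444 gene counts, which allows a level of up to 0.776 CPM at 3 counts. In normalised CPM these were 11 and 16.3, then 0 and 4.0, then 2.64 and 1.315, and 1.57 and 2.87. The female Myf5High libraries were thus above all 6 others, whose ranges overlapped between groups. How many of all genes have 1 group apart in this way was not counted. Dlk1 passed the filter on low counts because 4 of the 8 libraries, both of female Myf5High among them, reached its level of 2.6 CPM, counted before TMM scaling. Meg3 and Mirg reached that level in 8 of 8 libraries.

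**Figure D2:**
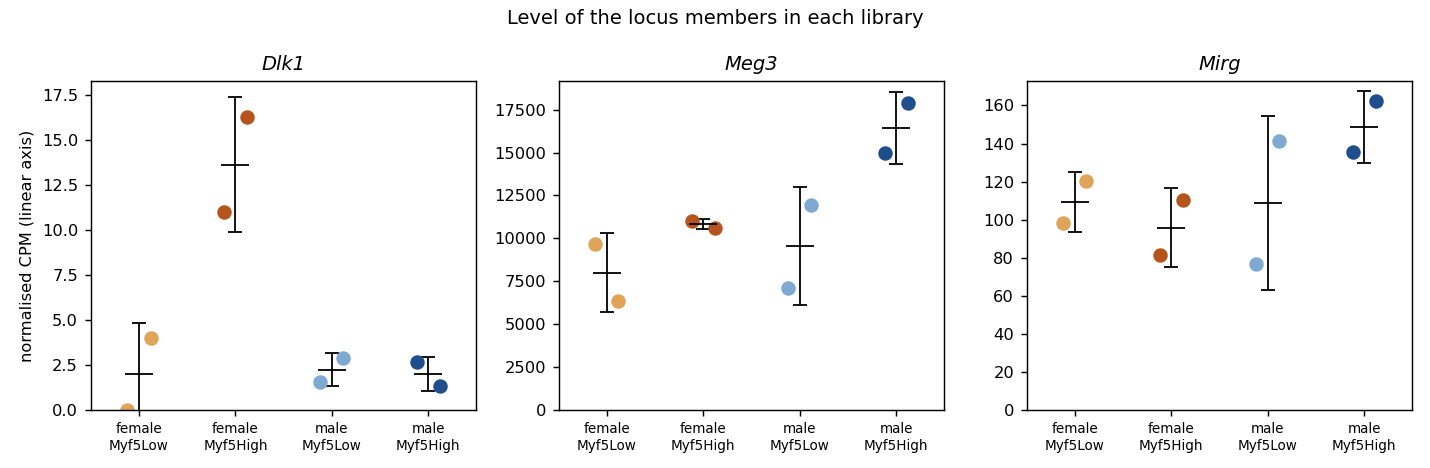
Normalised CPM (linear axis, from 0) of Dlk1, Meg3 and Mirg in each library (points) with the group mean (horizontal line) and SD (bars, cut off at 0), n = 2 libraries per group. Dlk1 is high in female Myf5High at 11 and 16.3, and Meg3 is highest in male Myf5High at 14954 and 17916.

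Besides the members, 2 lincRNAs of the domain on the same strand passed the filter. Gm26945 (ENSMUSG00000098061, chr12:109640341-109642351) lies within the annotated span of Rian, and B830012L14Rik (ENSMUSG00000098202, chr12:109695586-109702587) lies between Rian and Mirg. Gm26945 had 14.9 and 23.4 normalised CPM (Myf5High) and 10.7 and 6.12 (Myf5Low) among females, and 18.7 and 32.6 (Myf5High) and 24.4 and 15.3 (Myf5Low) among males. The female Myf5Low libraries were the lowest, below every library of the other groups, an order whose share over all genes was not counted. B830012L14Rik had 28.1 and 36.7 (Myf5High) and 28.3 and 16.9 (Myf5Low) among females, and 35.5 and 68.1 (Myf5High) and 26.4 and 44.9 (Myf5Low) among males. Its groups overlapped between the fractions in each sex and between the sexes in each fraction.

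**Figure D3:**
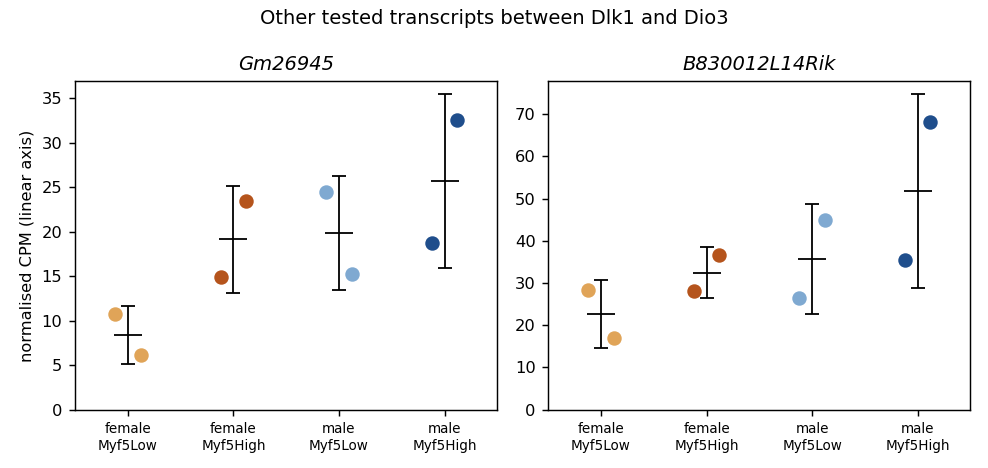
Normalised CPM (linear axis, from 0) of Gm26945 and B830012L14Rik in each library (points) with the group mean (line) and SD (bars), n = 2 libraries per group. Gm26945 is lowest in female Myf5Low, at 10.7 and 6.12.

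The other genes of the domain were at or near 0. Rtl1, a retrotransposon-derived gene expressed from the paternal copy, and Gm26906, antisense within Meg3, had 0 counts in all 8 libraries, and the upper limit of 3 counts is 0.708 to 0.955 CPM. Strand use in counting is not given, so reads of Meg3 and Gm26906 could not be told apart where they overlap. Begain, which bounds the domain, had 8 and 9 counts in female Myf5Low, 12 and 0 in male Myf5Low, and 0 in all 4 Myf5High libraries. Dio3, the thyroid hormone deiodinase gene at the other end, had 3 counts in female Myf5High replicate 2, 4 in female Myf5Low replicate 1 and 0 elsewhere. Begain and Dio3 did not pass the filter and were not tested.

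Between the fractions, Meg3 was 1.55 times as high in Myf5High as in Myf5Low by mean, at 13625 ± 3467 against 8770 ± 2552 normalised CPM (SD, n = 4 each), but the libraries overlapped. The log2 fold change was 0.61 (SE 0.21, 95% interval 0.17 to 1.05), with a p of 0.00867 before adjustment and an adjusted p of 0.252 by edgeR's quasi-likelihood test over 11730 genes. Mirg had 122 ± 34.6 in Myf5High and 109 ± 27.99 in Myf5Low (SD, n = 4 each), which is 0.13 on the log2 scale (interval -0.32 to 0.59, edgeR adjusted p 0.943). Dlk1 had 7.81 ± 7.10 and 2.11 ± 1.72 (SD, n = 4 each), which is 1.29 on the log2 scale (interval -0.42 to 3.0, edgeR adjusted p 0.725). The Dlk1 estimate was 0.81 without female Myf5Low replicate 1 and 4.28 without replicate 2, which leaves that group at 0, so it is no bound. None of the 3 tested members passed the threshold, an adjusted p under 0.05, which 1.2% of all tested genes did. Before adjustment 1 of the 3, Meg3, had a p under 0.05, as did 1098 of all genes, and DESeq2 called 0 of the 3. The lowest adjusted p for Meg3 over the alternatives was 0.0783, without male Myf5Low replicate 2, and DESeq2 gave 0.0818. In bulk RNA, fewer cells with a transcript and less of it per cell cannot be told apart.

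None of the 5 domain transcripts separated the fractions over both sexes, while the libraries of 4.58% of tested genes did not overlap between Myf5High and Myf5Low. The log2 difference of Gm26945 was 0.78 (SE 0.35) with an adjusted p of 0.481 by edgeR, and that of B830012L14Rik 0.53 (SE 0.29) with 0.639. The B830012L14Rik value was 0.26 without male Myf5High replicate 2. All 5 estimates were above 0, with intervals that reached below 0 for Dlk1, B830012L14Rik and Mirg, and Mirg turned to -0.055 without male Myf5Low replicate 1. The median over all tested genes was -0.02.

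Within females, Dlk1 had 13.6 ± 3.75 normalised CPM in Myf5High and 2.00 ± 2.83 in Myf5Low (SD, n = 2 each), which is 2.72 on the log2 scale (interval 0.31 to 5.14). Its p was 0.0294 before and 0.579 after adjustment by edgeR. Its estimate rested on female Myf5Low, being 1.75 without replicate 1, the library at 0, and 8.69 without replicate 2, where the lone remaining library is at 0 and the value is no bound. Meg3 had a log2 fold change of 0.43 (interval -0.18 to 1.05, edgeR adjusted p 0.84), and Mirg one of -0.19 (interval -0.83 to 0.46, edgeR adjusted p 0.954). Meg3 was at 0.76 without female Myf5Low replicate 1 and at 0.16 without replicate 2, and Mirg at -0.43 without female Myf5High replicate 2 and at 0.0005 without replicate 1. Gm26945 had a log2 fold change of 1.19, with a p of 0.0283 before and 0.569 after adjustment by edgeR. The female fractions did not overlap for Dlk1, Meg3 and Gm26945, as for 39.1% of tested genes, and 0 of 3 members passed the threshold, beside 0.332% of all genes. Before adjustment 1 of the 3 members, Dlk1, had a p under 0.05, as did 863 of all 11730 genes, and DESeq2 called 0 of the 3.

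Within males, Meg3 was 1.72 times as high in Myf5High as in Myf5Low, a log2 fold change of 0.78 (SE 0.29, interval 0.17 to 1.40). Its p was 0.0155 before and 0.543 after adjustment by edgeR. Mirg had a log2 fold change of 0.45 (interval -0.19 to 1.09, edgeR adjusted p 0.901). Dlk1, with at most 12 counts in each male library, had -0.14 (interval -2.59 to 2.31, edgeR adjusted p 1). Without male Myf5Low replicate 1, Meg3 was at 0.47 and Mirg at 0.0855, and without its replicate 2 they were at 1.21 and 0.96. Dlk1 was at -0.73 without male Myf5High replicate 1 and at -0.50 without male Myf5Low replicate 1, and turned to 0.25 and 0.35 without replicate 2 of each. Of the members, Meg3 alone did not overlap between the male fractions, as 33.1% of tested genes did not, and 0 of 3 passed the threshold, beside 0.171% of all genes. Before adjustment 1 of 3, Meg3, had a p under 0.05, as did 782 of all 11730 genes, and DESeq2 called 0 of the 3.

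**Figure D4:**
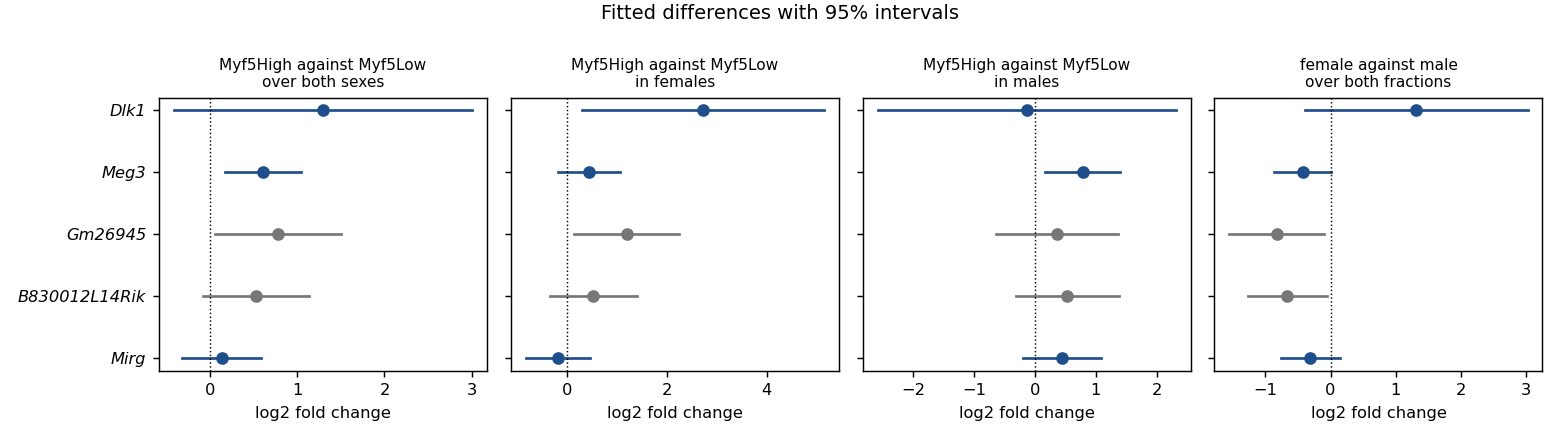
Log2 fold changes of the 5 tested transcripts of the domain (points, members in blue) with 95% intervals (lines) from edgeR, in 4 comparisons, each panel on its own scale. The interval of Meg3 runs from 0.17 to 1.05 for Myf5High against Myf5Low over both sexes, and no transcript passed an adjusted p of 0.05 in any panel.

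The difference between fractions was not shown to differ between the sexes for any member. The interaction, taken as the difference in females less that in males, was on the log2 scale 2.86 for Dlk1 (interval -0.56 to 6.28), -0.35 for Meg3 (interval -1.22 to 0.52) and -0.64 for Mirg (interval -1.55 to 0.27), each with an edgeR adjusted p of 1.00. Leaving out 1 library in turn gave 1.89 (female Myf5Low replicate 1) to 8.83 (female Myf5Low replicate 2) for Dlk1, -0.77 (male Myf5Low replicate 2) to -0.0325 (female Myf5Low replicate 1) for Meg3, and -1.14 (male Myf5Low replicate 2) to -0.28 (male Myf5Low replicate 1) for Mirg. None of the 11730 tested genes passed the threshold in this test (0.0%), 533 had an unadjusted p under 0.05, and DESeq2 called 2. Unadjusted, 0 of the 3 members passed 0.05.

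Between the sexes, Meg3 was 1.38 times as high in males as in females by mean, at 12987 ± 4610 against 9408 ± 2111 normalised CPM (SD, n = 4 each), with overlapping libraries. Its log2 fold change, female against male, was -0.43 (SE 0.21, interval -0.86 to 0.01, p 0.0528 before and 0.367 after adjustment by edgeR). Libraries of 1 sex and number may come from the same mice, so the 4 libraries of a sex may not be independent. Over the 6 alternatives that kept all libraries, summed pools among them, the Meg3 value was -0.44 to -0.42. Mirg had -0.31 (interval -0.77 to 0.14, edgeR adjusted p 0.559) and Dlk1 1.32 (interval -0.39 to 3.03, edgeR adjusted p 0.504). The Dlk1 estimate changed sign, to -1.67, without female Myf5Low replicate 2, which leaves that group at 0. Without male Myf5Low replicate 2, Meg3 was at -0.22 and Mirg at -0.0592. Gm26945 had -0.83 (edgeR adjusted p 0.283) and B830012L14Rik -0.66 (edgeR adjusted p 0.305), the latter being -0.39 without male Myf5High replicate 2. No domain transcript passed the threshold, which 1.65% of tested genes did, and none separated the sexes, as 7.08% of tested genes did. Before adjustment the p was under 0.05 for 0 of the 3 members, for 2 of 2 other transcripts and for 1630 of all 11730 genes, and DESeq2 called 0 of the 5.

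Within Myf5High, both female libraries were below both male ones for Meg3 and Mirg and above them for Dlk1, and 41.7% of tested genes did not overlap there. Male Myf5High had 1.52 times the female mean of Meg3 and 1.55 times that of Mirg. The log2 fold changes, female against male, were -0.60 for Meg3 (edgeR adjusted p 0.45), -0.63 for Mirg (edgeR adjusted p 0.452) and 2.75 for Dlk1 (edgeR adjusted p 0.368). Of these, 0 passed the threshold, beside 0.512% of all genes, and Dlk1 alone had a p under 0.05 before adjustment, at 0.0293, as did 1325 of all 11730 genes. Within Myf5Low the members overlapped between the sexes and 0 of 3 passed, beside 0.205% of all genes. The log2 fold changes there were -0.25 for Meg3, 0.01 for Mirg and -0.12 for Dlk1, with 0 of 3 members, beside 842 of all genes, at a p under 0.05 before adjustment and 0 calls by DESeq2. These directions were not stable. Meg3 turned to 0.17 without male Myf5Low replicate 2 and to 0.0236 without female Myf5Low replicate 2, and Mirg to -0.37 without male Myf5Low replicate 1 and to -0.14 without female Myf5Low replicate 2. Dlk1 turned to 0.84 without female Myf5Low replicate 1 and to 0.37 without male Myf5Low replicate 2, and was at -6.09 without female Myf5Low replicate 2, which leaves that group at 0. Of the domain transcripts, Gm26945 alone was lower in both female Myf5Low libraries than in both male ones, as 38.6% of tested genes did not overlap, with a log2 fold change of -1.24 (p 0.0226 before and 0.588 after adjustment by edgeR).

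The ratio of Meg3 to Mirg varied between libraries. Meg3 per kb was 38.7 to 54.8 times Mirg per kb in the Myf5High libraries, 45.6 ± 6.69 (SD, n = 4), and 21.3 to 39.6 times in the Myf5Low libraries, 33.1 ± 8.21 (SD, n = 4), with a small overlap. Over the 8 libraries, the Pearson correlation of log2 normalised CPM with Meg3 was 0.885 for B830012L14Rik (Spearman 0.833), 0.623 for Mirg (0.667), 0.608 for Gm26945 (0.5) and -0.03 for Dlk1 (-0.143). These are descriptions over libraries that share 4 groups and their scaling. The summed level of Meg3 and Mirg was almost that of Meg3, from 6484 normalised CPM in female Myf5Low replicate 2 to 18078 in male Myf5High replicate 2.

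The genes most like Meg3 over the 8 libraries, by Pearson correlation among the 9547 tested genes that averaged 5 CPM or more, were Tshz3 at 0.986, Cep85l at 0.976, Bcl7a at 0.971, Tek at 0.968 and Brwd1 at 0.965. Tshz3 encodes a zinc finger transcription factor and stood at 235 CPM in female Myf5Low replicate 2, where Meg3 was lowest, and at 509 in male Myf5High replicate 2, where Meg3 was highest. Tek, a receptor of endothelial cells that is also found in muscle stem cells, ran from 29.4 to 121 CPM between the same 2 libraries. Between the fractions Tek had an estimate above 0 (log2 fold change 0.99, edgeR adjusted p 0.0577). The other 7 of 8 endothelial markers had estimates below 0. The least like were Kif23 at -0.969, Bmp6 at -0.965 and Adh5 at -0.955. Kif23, a kinesin of cell division, had 28.9 CPM where Meg3 was lowest and 1.64 where it was highest. All 5 were again the most like with another prior count, and 3 of 5 by rank correlation, and of the 3 least like, 3 and 2 were.

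For Dlk1 the most like were Htatip2 at 0.962, Nsmce2 at 0.953, Ddx20 at 0.952, Flvcr1 at 0.946 and Pigm at 0.943, and the least like were Pdap1 at -0.951, Ndufa12 at -0.949 and Hjurp at -0.945. Htatip2 was lowest, at 1.92 CPM, in the library where Dlk1 was at 0, and highest, at 15.02, where Dlk1 was highest. Only 3 of the 5 stayed among the most like with another prior count, and 3 by rank correlation, and of the 3 least like 1 and 0 stayed. With 8 libraries and 9547 genes these correlations carry no test.

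Of 12 genes flanking the domain on chromosome 12, 10 were tested and 0 passed in edgeR between the fractions in either direction, with a median log2 fold change of 0.06, 0 with an unadjusted p under 0.05 and 0 calls by DESeq2. They include Yy1, a transcription factor, at 97.4 and 101 CPM in Myf5High and Myf5Low, and Dync1h1, the dynein heavy chain, at 1129 and 1085. Between the sexes 0 of 10 passed, with a median of -0.16, 1 unadjusted p under 0.05 and 0 calls by DESeq2. For this and the following lists, the shares over all 11730 tested genes were as follows. Between the fractions 1.2% passed in edgeR and 1098 genes had an unadjusted p under 0.05. Between the sexes these were 1.65% and 1630.

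Of 39 other imprinted genes, 27 were tested, and 3 passed between the fractions, 2 higher (0.767% of all genes) and 1 lower (0.435%) in Myf5High, with a median log2 fold change of 0.00. Unadjusted, 4 of the 27 were under 0.05, and DESeq2 called 3. H19, a maternally expressed noncoding RNA, was higher at 253 ± 85.4 against 101 ± 13.8 CPM (SD, n = 4 each; log2 fold change 1.26, edgeR adjusted p 0.000603), and kept its call in 14 of 14 alternatives. Calcr, the calcitonin receptor, was higher by 0.89 (edgeR adjusted p 0.0389) but kept its call in 6 of 14, losing it with the replicate block and without any library other than male Myf5High replicate 2. Cdkn1c, a maternally expressed inhibitor of cell cycling, was lower at 11.8 ± 3.71 against 280.0 ± 213 (SD, n = 4 each; log2 fold change -4.43, edgeR adjusted p 9.68e-08), and kept its call in 14 of 14. Between the sexes 6 of the 27 had an unadjusted p under 0.05 (H19, Plagl1, Gnas, Zrsr1, Trappc9 and Mest), DESeq2 called 4, and the median was -0.17. In edgeR 0 of 27 passed as higher in females (0.733% of all genes) and 1 as lower (0.921%), the paternally expressed Plagl1, lower by 0.98 on the log2 scale (edgeR adjusted p 0.049), a call kept in 7 of 14 alternatives. It was lost without either female Myf5High library, either female Myf5Low library, male Myf5High replicate 2 or male Myf5Low replicate 1, and without Gm42418 and mitochondrial genes.

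**Figure D5:**
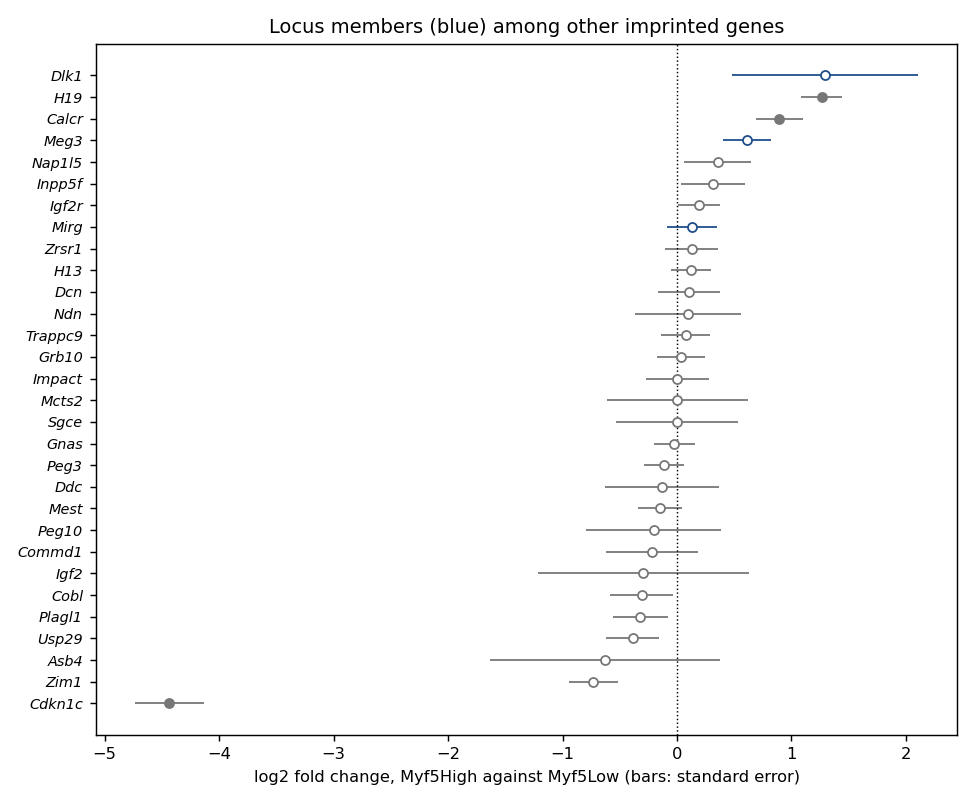
Log2 fold change of Myf5High against Myf5Low over both sexes (points) with its standard error (bars) for the 3 tested members (blue) and 27 other imprinted genes (grey), in order of fold change. Filled points passed an edgeR adjusted p of 0.05 (H19, Calcr and Cdkn1c), and open points did not.

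Of 13 regulators of imprinted methylation, 12 were tested and 1, Aff3, a factor of the elongation machinery that binds imprinted regions, passed between the fractions, beside 1.2% of all genes. Aff3 was also the 1 of 12 with an unadjusted p under 0.05, beside 1098 of all 11730 genes. Aff3 was low, at 5.07 ± 8.13 CPM in Myf5High and 13.5 ± 13.8 in Myf5Low (SD, n = 4 each; edgeR adjusted p 0.0439), a call lost without female Myf5High replicate 1, female Myf5Low replicate 2, male Myf5High replicate 1 or male Myf5Low replicate 1. It was also higher in females, at 17.1 ± 11.8 against 1.49 ± 1.79 CPM (SD, n = 4 each; edgeR adjusted p 0.00136). That was the 1 call of 12 between the sexes in edgeR, beside 1.65% of all genes, and in DESeq2. There 5 of 12 had an unadjusted p under 0.05, as did 1630 of all 11730 genes. Both male Myf5High libraries were at 0, so no fitted fold is given. In females alone the log2 fold change of Aff3 between the fractions was -1.23 (edgeR adjusted p 0.802). The DNA methyltransferases Dnmt1 and Dnmt3a, Trim28 and Ctcf were in this list and did not pass. Of 9 Polycomb genes, whose complex is known to bind Meg3, 0 passed in edgeR in either comparison. Unadjusted, 1 of the 9 was under 0.05 between the fractions and 2 between the sexes, and DESeq2 called 0 and 1.

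A list of 6 genes held Notch receptors, Adam17, which processes DLK1, and Dlk2. Of these, 5 were tested and 0 passed in edgeR or DESeq2 between the fractions or between the sexes. Unadjusted, 2 (Notch1 and Notch3) and 0 had a p under 0.05. Notch3 had 252 ± 86.5 CPM in Myf5High and 166 ± 40.7 in Myf5Low (SD, n = 4 each; log2 fold change 0.62, edgeR adjusted p 0.32), and Notch1 had 118 ± 20.1 and 164 ± 33.7 (SD, n = 4 each; -0.46, edgeR adjusted p 0.393). Dlk2, the paralogue of Dlk1, had 0 CPM in all 8 libraries. Of 9 genes that process or load microRNAs, 0 passed in edgeR or DESeq2 in either comparison, with 1 (Xpo5) and 0 under an unadjusted p of 0.05. Dicer1 had 169 ± 23.9 and 171 ± 16.5 CPM (SD, n = 4 each), and Drosha 113 ± 17.9 and 109 ± 15.9 (SD, n = 4 each).

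Of 9 MEF2 and myogenic regulators, 7 were tested. Myf5 was higher (log2 fold change 1.19, edgeR adjusted p 0.0284, lost in 5 of 14 alternatives) and Myog, a factor of differentiating myoblasts, was lower in Myf5High, at 0.644 ± 0.52 against 226 ± 206 CPM (SD, n = 4 each; edgeR adjusted p 2.24e-08, called in 14 of 14 alternatives). The Myf5 call was lost without either female Myf5High library, female Myf5Low replicate 1, male Myf5High replicate 1 or male Myf5Low replicate 2. MEF2 proteins are known to act on this locus in muscle. Mef2a had 84.0 ± 28.1 and 80.4 ± 19.7 CPM in Myf5High and Myf5Low (SD, n = 4 each) and did not pass. Between the fractions 2 of the 7 passed in edgeR, beside 1.2% of all genes. Myf5 is among these 2, and the fractions were sorted by the reporter at Myf5. Its higher level was thus set by the sort and is no result about the list. Unadjusted, 3 of the 7 had a p under 0.05, as did 1098 of all 11730 genes, and DESeq2 called 3. Between the sexes 6 of 7 estimates were higher in females, with a median of 0.64, beside -0.02 over all genes. Among them Mef2d had 0.80 (edgeR adjusted p 0.0552) and Mef2a 0.69 (edgeR adjusted p 0.0891), neither of which passed. Unadjusted, 6 of the 7 were under 0.05, as were 1630 of all 11730 genes, and DESeq2 called 3. Mef2c was the 1 gene with an estimate below 0 and the 1 that passed in edgeR, beside 1.65% of all genes. It was lower in females, at 35.3 ± 18.4 against 79.7 ± 41.9 CPM (SD, n = 4 each; log2 fold change -1.30, edgeR adjusted p 0.049). That call was lost with a minimum mean of 50 counts and without female Myf5High replicate 2, either female Myf5Low library, male Myf5High replicate 1 or male Myf5Low replicate 2.

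Other nuclear noncoding RNAs gave a scale for Meg3. Malat1 had 14510 ± 1252 CPM in Myf5High and 13759 ± 1379 in Myf5Low (SD, n = 4 each; log2 fold change 0.08, edgeR adjusted p 0.963), and Neat1 had 1143 ± 259 and 1044 ± 302 (SD, n = 4 each; 0.13, edgeR adjusted p 0.934). Of the 3 tested in this list, 0 passed in edgeR or DESeq2 between the fractions, and 1 (Xist) had an unadjusted p under 0.05. Xist, the RNA of the inactive X chromosome, was higher in females by 9.25 on the log2 scale (edgeR adjusted p 6.94e-13), the 1 call of 3 between the sexes.

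The summed levels of 3 lists of markers of other cell types, fibro-adipogenic, immune and mural, did not overlap between the fractions, with 1 gene of each passing the threshold that 1.2% of all genes passed. For fibro-adipogenic cells the summed level of 8 markers was 1417 to 1874 CPM in Myf5High and 822 to 1295 in Myf5Low, without overlap, in the direction of the Meg3 difference. Of the 7 tested, 1 passed as higher, Dpt, a matrix protein gene, at 444 ± 128 against 210 ± 35.2 CPM (SD, n = 4 each; edgeR adjusted p 0.00327), and 5 of 7 estimates were above 0. Unadjusted, 2 of the 7 were under 0.05, and DESeq2 called 1. Pdgfra, a defining marker that did not pass the filter, was at 0 to 4.33 CPM. It had 2.66 ± 1.25 in Myf5High and 0.77 ± 0.76 in Myf5Low (SD, n = 4 each), the direction of the sum. Cd34, which muscle stem cells also express, made up most of the sum with Dpt. The immune sum was 17.5 to 40.8 CPM in Myf5High and 49.7 to 88.7 in Myf5Low, with 1 of 7 tested lower, C1qa (3 unadjusted, 2 by DESeq2). The mural sum was 153 to 205 and 267 to 570, with 1 of 7 lower, Acta2 (3 unadjusted, 1 by DESeq2). The sum of 12 myogenic commitment markers was 207 to 898 in Myf5High and 454 to 1221 in Myf5Low, with 3 of 12 lower, Myog, Mymk and Chrna1 (7 unadjusted, 4 by DESeq2). In females all 12 estimates were lower in Myf5High, with a median log2 fold change of -2.53. In males 7 were higher and 5 lower, with a median of 0.095. In each sex 2 of the 12 passed in edgeR, both as lower, beside 0.332% of all genes in females and 0.171% in males. The interaction of sex and fraction called 0 of the 12, and 0 of all genes. The Chrna1 call was lost without either female Myf5High library, female Myf5Low replicate 2 or male Myf5Low replicate 1. The part of any of these in the Meg3, Mirg or Dlk1 levels was not tested.

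The endothelial sum was 215 to 406 CPM in Myf5High and 265 to 581 in Myf5Low, the glial sum 64.2 to 110.1 and 84.7 to 174, and the tenocyte sum 14.5 to 50.1 and 22.2 to 43.3, all overlapping and with 0 genes passing in edgeR between the fractions. Unadjusted, 3 of 8 endothelial (1 called by DESeq2), 0 of 6 glial and 1 of 5 tenocyte markers were under 0.05. Of all 11730 genes 1098 were. The 3 endothelial genes were Tek, higher in Myf5High, and Pecam1 and Cldn5, lower. Of the 8 endothelial estimates 7 were below 0, with a median log2 fold change of -0.37. Muscle stem cell markers summed to 3252 to 4292 and 3292 to 3654 CPM. Of these, 2 of 9, Myf5 and Calcr, passed as higher (4 unadjusted, 2 by DESeq2), beside 0.767% of all genes. The call of Myf5 was set by the sort on its reporter. Between the sexes, 0 genes of the fibro-adipogenic, endothelial, immune, mural, glial, tenocyte and muscle stem cell lists passed in edgeR. In that order 2, 4, 2, 2, 0, 1 and 2 had an unadjusted p under 0.05, as did 1630 of all 11730 genes. DESeq2 called 1 endothelial and 1 muscle stem cell marker. Of the 12 commitment markers, Mef2c and Myh3 were called lower in females in edgeR, beside 0.921% of all genes. There 6 of 12 had an unadjusted p under 0.05 and DESeq2 called 1. The Myh3 call was lost with DESeq2 and without female Myf5High replicate 1, either female Myf5Low library, male Myf5High replicate 1 or male Myf5Low replicate 2. The 7 fibro-adipogenic estimates were all lower in females, the direction of the Meg3 difference, with sums of 822 to 1619 CPM in females and 1154 to 1874 in males. The endothelial sum was 215 to 347 CPM in females and 306 to 581 in males. Their part in the difference of Meg3 between the sexes was not tested.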

How the data were processed

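PolyA RNA of 8 libraries was sequenced in single reads, per the labels' protocols. The values deposited by the authors are raw counts of reads, 1 row for each Ensembl gene, and are not normalised. HTSeq and GRCm38 are named in the submitters' processing notes. The aligner, the annotation release and the strand setting are not given in the sources used here. Counting of overlapping and antisense genes is therefore uncertain. The tallies of reads that met no gene (42.0% to 45.3% of those tallied) stayed out of all totals. Symbols, positions and exon lengths came from GENCODE M21, which matched 27441 of 27554 identifiers. Sequences came from RefSeq tables of GRCm38.p6.

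Groups came from the sample titles. Counts were tested in R 4.3.3 with edgeR 4.0.16: filterByExpr (minimum count 10, minimum total 15), TMM scaling, one mean per group over all 8 libraries, glmQLFit and glmQLFTest, two-sided, with Benjamini-Hochberg adjustment over 11730 genes. The common biological coefficient of variation was 0.36. P-values measure the spread between pooled libraries, and those of 1 sex and number may come from the same mice. Correlations used a prior count of 2. Alternatives were RLE scaling, other filters, DESeq2 1.42.0, the pool as a block, summed pools, fewer libraries, and leaving out Gm42418 with mitochondrial genes or each library in turn.

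The members, gene lists and tests were chosen with earlier results of these data known. Named are the members, genes of the lists and, for Dlk1 and Meg3, the 5 genes most and 3 least like each. The lists were flanking genes, other imprinted genes, methylation regulators, MEF2 and myogenic regulators, Polycomb, Notch receptors with DLK1 processing, microRNA processing, nuclear noncoding RNAs and cell type markers. The list for the rest of the domain was replaced by all genes between Begain and Dio3, because a gene in it, Gm27000, lies on another chromosome.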

Additional observations from a re-analysis of the deposited data

How the results depend on the processing

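No member passed the threshold in any comparison under any alternative tried, and of 493 alternative values of log2 fold change for the 5 domain transcripts, 473 kept their direction and their side of the threshold and 20 changed sign, of which none was past the threshold. Dlk1 has no value under a minimum mean of 50 counts. Where a setting changed a value, the cause was not tested.

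With no filter on low counts, the counts of called genes over the whole table were 291 for Myf5High against Myf5Low over both sexes (141 in the report's fit), 167 in females (39), 111 in males (20), 14 for the interaction (0), 477 for female against male over both fractions (194), 263 within Myf5High (60) and 120 within Myf5Low (24). With DESeq2 they were 234, 112, 72, 2, 371, 189 and 64 in the same order. With only the libraries compared they were 77 in females, 2 in males and 27 between the sexes within Myf5High.

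Leaving out each library in turn gave 82 to 243 called genes over both sexes, 9 to 117 in females, 8 to 74 in males, 0 to 8 for the interaction, 82 to 558 between the sexes, 24 to 210 within Myf5High and 19 to 55 within Myf5Low. For Myf5High against Myf5Low over both sexes, the log2 fold change of Meg3 was then 0.45 to 0.82, that of Dlk1 0.81 to 4.28, and that of Mirg -0.055 (without male Myf5Low replicate 1) to 0.39. Between the sexes, Meg3 was -0.60 to -0.22, Mirg -0.51 to -0.06 and Dlk1 -1.67 to 1.79. In females, Mirg was -0.43 to 0.0005. In males, Dlk1 was -0.73 to 0.35, Gm26945 -0.089 to 0.75 and B830012L14Rik -0.0071 to 0.96. The interaction of B830012L14Rik was -0.44 to 0.53. Between the sexes within Myf5High, Gm26945 was -0.78 to 0.041. Within Myf5Low, Dlk1 was -6.09 to 0.84, Meg3 -0.59 to 0.17 and Mirg -0.37 to 0.51. The interaction of B830012L14Rik was also above 0, at 0.0078, with a minimum mean of 50 counts.

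The fit with the pool number as a replicate block gave log2 fold changes over both sexes of 0.65 for Meg3 (edgeR adjusted p 0.207), 1.67 for Dlk1 and 0.16 for Mirg, an interaction of 0.039 for B830012L14Rik, and 136 called genes (33 in females and 26 in males). Pairing is not stated in the labels, and the deviations of same-numbered libraries from their group means correlated at 0.0275 in females and -3e-04 in males.

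Depth limits Dlk1, which held 0 to 64 counts in a library and for which 3 counts are 0.708 to 0.955 CPM, and its replicates also spread widely, at 0 and 17 counts in female Myf5Low.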
